A study of Mus musculus with 12 samples.

Results

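FST+LIN28B organoids were compared with control organoids grown from the cochleae of 5-day-old mice. The comparison comprised 3 FST+LIN28B libraries and 3 control libraries, 6 of the 12 libraries of the series, and they were chosen by the treatment that the sample labels give. The other 6 libraries came from organoids that overexpressed LIN28B alone or FST alone, with 3 libraries each. FST+LIN28B organoids carried a doxycycline-inducible transgene for the human FST-288 isoform, a doxycycline-inducible LIN28B transgene in the Col1a1 locus, and 1 copy of the reverse tetracycline transactivator rtTA*M2 in the ROSA26 locus. Control organoids came from littermates with the R26rtTA*M2/+ allele and no overexpression construct. All groups, controls included, received 0.5 µg/ml doxycycline and a medium with EGF, FGF2, the GSK3 inhibitor CHIR99021 and valproic acid, a histone deacetylase inhibitor. The transactivator is driven from ROSA26, so transgene expression was not restricted to one cell type. Cochlear epithelial cells were embedded in Matrigel and expanded for 7 days, and the 3 libraries of a condition came from 3 different animals. RNA was sequenced as stranded total RNA, in paired reads of 50 bases.

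The cochlear sensory epithelium consists of hair cells, which detect sound, and the supporting cells around them. In mice, supporting cells can divide and turn into hair cells around birth and lose most of this capacity within days. Follistatin, the product of Fst, binds activins outside the cell and keeps them from their receptors, which otherwise activate SMAD transcription factors. LIN28B is an RNA-binding protein of early development that blocks the maturation of let-7 microRNAs. A let-7 microRNA pairs through its seed with mRNAs of growth and stem cell genes and represses them, so LIN28B and let-7 form a developmental switch. The question addressed here was which transcripts differed when both factors were overexpressed together.

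Members of the family share a seed, shown in the next sequences because 12 let-7 targets were among the genes that differed. Bases 2 to 8, the seed, are in capitals (RefSeq, GRCm38.p6, read 5′ to 3′).
let-7a-5p, chr13:48538239-48538260, minus strand: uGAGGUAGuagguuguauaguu
let-7d-5p, chr13:48536078-48536099, minus strand: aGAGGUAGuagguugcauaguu
let-7i-5p, chr10:122985698-122985719, minus strand: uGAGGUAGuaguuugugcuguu
miR-98-5p, chrX:151913229-151913250, plus strand: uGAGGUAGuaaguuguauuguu
These members differ outside the seed, and let-7d also differs in its first base. A perfect match to the seed followed by A, called an 8mer here, reads CTACCTCA in a 3′ UTR. The next sequences are such matches in the 3′ UTRs of genes that were higher in FST+LIN28B organoids, each with the 14 bases before it in lower case and the 8mer in capitals (GENCODE M21 transcripts, GRCm38).
Hmga2, chr10:120364224-120364245, minus strand: ccgacattcaatttCTACCTCA
Trim71, chr9:114512472-114512493, minus strand: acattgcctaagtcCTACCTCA
Trim71, chr9:114512376-114512397, minus strand: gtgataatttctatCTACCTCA
Igf2bp1, chr11:95961778-95961799, minus strand: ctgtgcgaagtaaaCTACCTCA
Igf2bp2, chr16:22059473-22059494, minus strand: cacacaaataaaagCTACCTCA
Arid3a, chr10:79953896-79953917, plus strand: aggcaagtttctttCTACCTCA
Tgfbr1, chr4:47410829-47410850, plus strand: ggaggctggttgttCTACCTCA
B3gnt7, chr1:86306789-86306810, plus strand: actggccgctctgaCTACCTCA
The Hmga2 match starts 58 bases past the stop codon of a UTR of 3014 bases, and the Tgfbr1 match starts 66 bases past it. The Trim71 UTR is 5512 bases long and holds 4 8mers, at 166, 262, 3591 and 3617 bases past the stop codon, and the Igf2bp1 UTR of 6337 bases holds 3. A match is a description of the sequence and not a measured binding site.

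The FST+LIN28B libraries held 65.29, 53.66 and 59.04 M estimated counts (M, 10 to the power 6), and the control libraries held 58.18, 54.42 and 59.39 M. Values are given as CPM, counts per M counts after TMM scaling, with replicates 1 to 3 of a group in that order. Fold changes are log2 values of FST+LIN28B over control from edgeR, with the standard error after ±, and p-values are adjusted over all 18780 genes tested, of 36047 in the files. The cochlear epithelium markers summed to 1870 to 1990 CPM in FST+LIN28B organoids and 1860 to 2130 CPM in control organoids, with 8 of 10 tested and Pax2 and Otx2 below the filter on low counts. Y-linked genes were expressed in 1 of 3 FST+LIN28B libraries and 2 of 3 control libraries, so the share of male animals differed between the groups. With Y-linked expression in the design 129 genes were called in place of 236, and 32 of 90 named genes that were called then missed the threshold. These are named below beside their values.

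Both transgene products were high in every FST+LIN28B library. Fst, which encodes follistatin, measured 817, 334 and 719 CPM in FST+LIN28B organoids, against 13.1, 7.96 and 7.72 CPM in control organoids (log2 fold change 6.02 ± 0.57, adjusted p = 0.00055). Lin28b measured 256, 187 and 306 CPM in FST+LIN28B organoids, against 22, 21.2 and 24.5 CPM in control organoids (log2 fold change 3.47 ± 0.32, adjusted p = 0.00037). The FST+LIN28B library with the least Fst and the least Lin28b was replicate 2, and neither gene overlapped between the groups. The transgenes are human and the counts were made on mouse transcripts, so these values may combine mouse transcripts with transgene reads that resembled them.

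At an adjusted p under 0.01, 236 genes differed between FST+LIN28B and control organoids, or 1.26% of those tested. Of these, 149 were higher in FST+LIN28B organoids (0.793% of genes tested) and 87 were lower (0.463%), with median log2 fold changes of 1.34 and -1.22. More than 2-fold differences were found for 98 of the higher and 58 of the lower genes. The median over all genes tested was -0.01, with the middle 50% between -0.24 and 0.16. All 236 genes were separated, with every FST+LIN28B library on one side of every control library, while of all genes tested 15.2% were separated above and 15.1% below the controls. At an unadjusted p under 0.05, edgeR gave 15.8% of genes, while at the same adjusted threshold DESeq2 called 5% and limma, on log2(TPM + 1), called 0.969%. Of the 149 higher genes, 31 averaged under 2 CPM in controls. With control library 1, 2 or 3 left out, 90, 58 and 58 genes were called. With FST+LIN28B library 1, 2 or 3 left out, 74, 208 and 87 were called. The number was 621 when FST library 2 was left out, which is no part of the comparison and enters only through the shared estimate of the spread. Leaving out any of the other 5 libraries gave 174 to 246 genes.

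**Figure D1:**
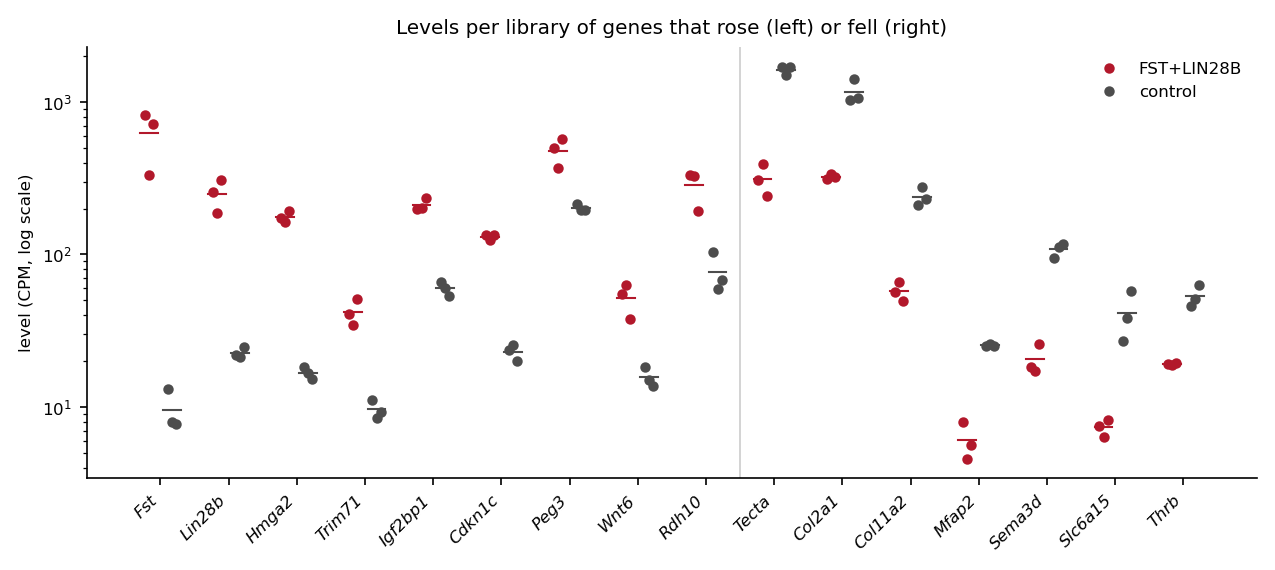
Level of named genes in each library, in CPM on a log axis. Points are single libraries of FST+LIN28B organoids and control organoids, and lines are group means. Genes higher in FST+LIN28B organoids are on the left and genes lower are on the right, and the groups do not overlap for any gene drawn. Fst and Lin28b are the transgene products.

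Of 45 listed targets of let-7, 12 were higher in FST+LIN28B organoids and 0 were lower, against 0.793% and 0.463% of all genes tested. Their median log2 fold change was 0.53, against -0.01 over all genes. A positive fold change was measured for 39 of the 45, against 48% of all genes, and 31 had all 3 FST+LIN28B libraries above all 3 controls, against 15.2% of all genes. These shares of all genes, with 15.1% separated below the controls, are also the background for the counts of every list below. Hmga2, which encodes a chromatin architectural protein of embryonic and stem cells, measured 174, 163 and 192 CPM in FST+LIN28B organoids, against 18.2, 16.7 and 15.2 CPM in control organoids (log2 fold change 3.40 ± 0.16, adjusted p = 1.34e-06). Trim71, the mouse ortholog of the let-7 target lin-41 of Caenorhabditis elegans, measured 40.6, 34.4 and 50.8 CPM with both transgenes, against 11, 8.5 and 9.32 CPM in controls (log2 fold change 2.12 ± 0.20, adjusted p = 0.0003). In both genes the groups were far apart, and the lowest FST+LIN28B library was over 3 times the highest control library.

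The 3 mRNA-binding IGF2BP proteins, which stabilise growth-related transcripts, were all encoded by higher genes. Igf2bp1 measured 199.5, 201 and 235 CPM with both transgenes, against 65.5, 60.6 and 53.7 CPM in controls (log2 fold change 1.82 ± 0.17, adjusted p = 0.000294). Igf2bp2 measured 170.3, 176 and 162 CPM with both transgenes, against 75.8, 79.5 and 69 CPM in controls (log2 fold change 1.18 ± 0.09, adjusted p = 0.000102). Igf2bp3 had the smallest difference of the family, at 95.2, 108 and 99.9 CPM with both transgenes, against 66.4, 67.9 and 63 CPM in controls (log2 fold change 0.62 ± 0.08, adjusted p = 0.00142). Among transcription factors, Arid3a measured 36.9, 30.9 and 37 CPM in the FST+LIN28B libraries and 13.8, 14.6 and 12.5 CPM in the control libraries (log2 fold change 1.36 ± 0.13, adjusted p = 0.000294), and Hic2, a zinc finger repressor, measured 42, 41.5 and 47.2 CPM in the FST+LIN28B libraries and 19.5, 20.3 and 17.6 CPM in the control libraries (log2 fold change 1.19 ± 0.12, adjusted p = 0.000398). Cdc34, the E2 ubiquitin-conjugating enzyme that works with SCF ligases, had 162, 168 and 143 CPM in the FST+LIN28B libraries and 72.5, 74.2 and 71.2 CPM in the control libraries (log2 fold change 1.12 ± 0.13, adjusted p = 0.000853). None of these 6 genes overlapped between the groups. Smaller differences were found for Pbx2, a TALE homeodomain factor (log2 fold change 0.79 ± 0.13, adjusted p = 0.00533), E2f5, a repressive E2F (0.73 ± 0.13, adjusted p = 0.0076), and Bach1, a heme-regulated repressor (0.66 ± 0.10, adjusted p = 0.00414). Tgfbr1, the type I TGF-β receptor, is also a let-7 target and is described with the receptors. Pbx2, E2f5 and Bach1 were not called with Y-linked expression in the design (adjusted p 0.0143, 0.011 and 0.0114). Igf2bp3, Pbx2, E2f5 and Bach1 were not called when counts were rescaled for transcript length (adjusted p 0.0502, 0.0363, 0.0109 and 0.0157), with log2 fold changes of 0.44, 0.73, 0.76 and 0.61.

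Other targets on the list were not called. Ccnd2, which encodes cyclin D2, measured 476, 391 and 612 CPM in FST+LIN28B organoids, against 152, 91.6 and 105 CPM in control organoids (log2 fold change 2.09 ± 0.37, adjusted p = 0.0107), with no overlap between the groups. Dicer1, the RNase that produces mature microRNAs, measured 220.0, 248 and 229 CPM in FST+LIN28B organoids, against 179.5, 166 and 169 CPM in control organoids (adjusted p = 0.0451), and Ccnd1, encoding cyclin D1, had a log2 fold change of 0.72 (adjusted p = 0.0205). Cdc25a, a phosphatase that activates CDKs, had a log2 fold change of 0.18 (adjusted p = 0.349). The longest UTR of Ccnd2, Ccnd1 and Dicer1 held no 8mer and no 7mer, a seed match without the A. That of Cdc25a held 1 7mer and no 8mer. Other uncalled members did hold 8mers, among them Fignl2 and Nr6a1 with 3 each, and Igf1r, Insr and Irs2 with 1 each. Uncalled members were thus found both with and without a match. Of 14 tested genes of microRNA processing, 0 were called by edgeR, with a median of 0.04. At an unadjusted p under 0.05 there were 6, DESeq2 called 1 and limma 0. The calls of Hmga2, Trim71, Igf2bp1, Igf2bp2, Arid3a, Hic2 and Cdc34 held without each of the 12 libraries in turn. Tgfbr1, Igf2bp3, Pbx2 and Bach1 each lost the call when 1 or more of control library 1, 2 and 3 and FST+LIN28B library 1, 2 and 3 were left out singly (highest adjusted p 0.0116, 0.0131, 0.0337 and 0.0207). E2f5 lost its call when control library 1, 2 or 3, FST library 1, LIN28B library 1 or 3 or FST+LIN28B library 1, 2 or 3 was left out (highest adjusted p 0.0443).

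Seed matches were counted in the longest 3′ UTR of each gene. An 8mer was found in 24 of 148 genes called higher (16.2%), 4 of 87 called lower (4.6%) and 695 of 16409 genes tested (4.24%). These UTRs had median lengths of 1740, 1540 and 1350 bases, and the number of 8mers per 10 kb of UTR was 0.992 in genes called higher, 0.219 in genes called lower and 0.247 in all genes. The list of let-7 targets held an 8mer in 26 of 45 members, which is how such targets are often recognised, so it was also left out of the count. Outside the list, 14 of 136 genes called higher held an 8mer (10.3%), with a median UTR of 1690 bases. The counts that follow include the members of the list, such as Igf2bp2, Igf2bp3, Trim71, Igf2bp1 and Bach1, so they are not independent of it. With UTRs of 1000 to 3000 bases, 9 of 313 genes with an 8mer were called higher (2.88%) and 4 were called lower (1.28%). Of 6618 genes without one, 63 (0.952%) were called higher and 30 (0.453%) were called lower. The median log2 fold change was 0.24 in 36 genes with 2 or more 8mers, 0.07 in 659 genes with 1, and 0.00 in 15714 genes with none. Most genes with an 8mer were therefore not called, and their shift was small.

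**Figure D2:**
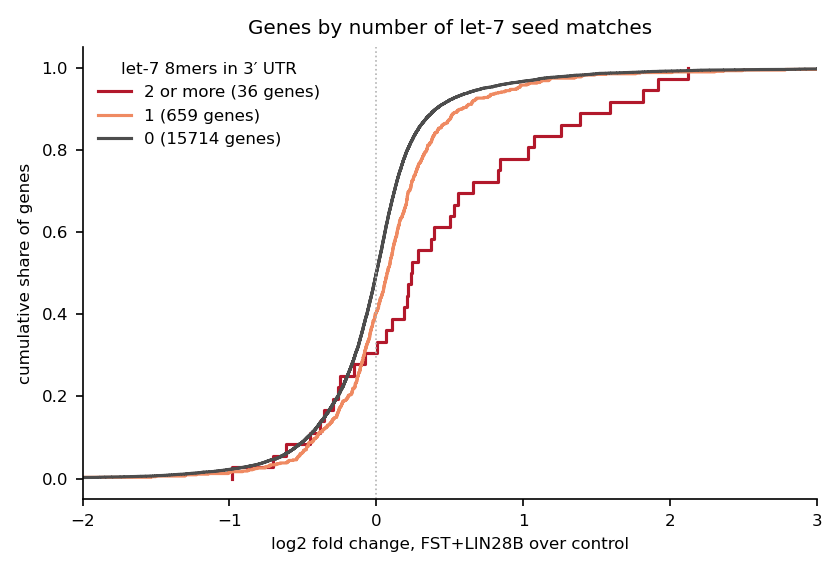
Cumulative share of genes tested by log2 fold change of FST+LIN28B over control, for genes with 0, 1, and 2 or more let-7 8mers in the longest 3′ UTR. The tails of the axis are cut off. Members of the let-7 target list are included, and the medians are 0.00, 0.07 and 0.24.

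The 14 higher genes with an 8mer outside the list included Lin28b itself, whose mouse transcript has a match 36 bases past its stop codon. Of the others, 2 were picked after their values were seen. B3gnt7, a glycosyltransferase of keratan sulfate synthesis, measured 50.4, 40.6 and 32.4 CPM in FST+LIN28B organoids, against 16.2, 15.2 and 12.6 CPM in control organoids (log2 fold change 1.49 ± 0.17, adjusted p = 0.000853). Sowaha measured 31.6, 27.9 and 34.8 CPM in FST+LIN28B organoids, against 14, 15.2 and 15 CPM in control organoids (log2 fold change 1.09 ± 0.14, adjusted p = 0.00183). Neither gene overlapped between the groups. The 4 lower genes with an 8mer were Ptpru, Frmd4b, Col27a1 and Fam198a. Sowaha lost its call when control library 1, 2 or 3 or FST+LIN28B library 1 or 3 was left out (highest adjusted p 0.0131).

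Hair cell fate factors mostly had positive fold changes in FST+LIN28B organoids, from low levels in controls. Of 16 listed, 14 passed the filter on low counts, 3 were higher and 0 were lower, with a median log2 fold change of 1.01, and 13 of 14 values were positive. A factor that was low in controls passed that filter through the conditions in which it was higher, so the median covers only such genes. Pou4f3, the POU factor that hair cells need for survival, measured 3.45, 6.28 and 3.45 CPM in FST+LIN28B organoids, against 0.134, 0.0557 and 0.0166 CPM in control organoids (log2 fold change 5.95 ± 0.81, adjusted p = 0.002). These values rested on 220.0, 332 and 198 counts in FST+LIN28B organoids and 8, 3 and 1 counts in control organoids. Rbm24, an RNA-binding splicing regulator, had 87, 123 and 79 counts with both transgenes and 2, 0 and 1 counts in controls. Its summed level was 93.1 times that of controls, with a 95% counting interval of 31.5 to 454 (exact binomial), and the adjusted p was 0.00183. Dll1, a Notch ligand made by nascent hair cells, measured 1.44, 3.84 and 1.6 CPM in FST+LIN28B organoids, against 0.168, 0.241 and 0.215 CPM in control organoids (log2 fold change 3.45 ± 0.50, adjusted p = 0.00285). FST+LIN28B replicate 2 was the highest library for all 3 genes, and the groups did not overlap.

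Several defining hair cell genes missed the threshold although their groups did not overlap. Atoh1, the bHLH factor that starts hair cell differentiation, measured 2.91, 3.04 and 3.78 CPM in FST+LIN28B organoids, against 0.319, 0.316 and 0.116 CPM in control organoids (log2 fold change 3.69 ± 0.68, adjusted p = 0.0107). Gfi1, a repressor that acts with Atoh1 and Pou4f3, measured 0.376, 0.718 and 0.401 CPM in FST+LIN28B organoids, against 0.117, 0.0371 and 0.0828 CPM in control organoids (log2 fold change 2.61 ± 0.59, adjusted p = 0.0289). Lhx3, a LIM homeodomain factor of hair cells, measured 0.674, 1.06 and 0.645 CPM in the FST+LIN28B libraries and 0, 0.0742 and 0 CPM in the control libraries (adjusted p = 0.0142). All 3 were at or below 0.319 CPM in every control library. Other settings of the fit called Atoh1 in 8 of 24 cases, Lhx3 in 8 of 23 and Gfi1 in 2 of 23. DESeq2 and an adjusted p under 0.05 were among these settings for all 3 genes. The neuron markers, some of which hair cells share, summed to 132 to 184 CPM in FST+LIN28B organoids and 121 to 142 CPM in control organoids. Of 8 tested, 1 was higher, Nefl, the neurofilament light chain, which measured 5.09, 1.72 and 3.01 CPM in the FST+LIN28B libraries and 0.671, 0.353 and 0.315 CPM in the control libraries (log2 fold change 2.87 ± 0.49, adjusted p = 0.00734). Their part in the hair cell values was not tested. With control library 2 or 3 left out, 0 of the hair cell factors were called. Pou4f3, Rbm24 and Dll1 each lost the call when 1 or more of control library 1, 2 and 3 were left out singly (highest adjusted p 0.0181, 0.0171 and 0.0225). Nefl lost its call when control library 1, 2 or 3, FST library 1, LIN28B library 1, 2 or 3 or FST+LIN28B library 1 or 3 was left out (highest adjusted p 0.0548). Nefl was not called with Y-linked expression in the design (adjusted p 0.0199).

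Genes of the hair bundle and ribbon synapse, which act in differentiated hair cells, had fold changes centred near 0. Of 30 tested, 2 were higher and 0 were lower, with a median of 0.01. Espn, which bundles the actin of stereocilia, measured 21.2, 13.1 and 20.7 CPM in FST+LIN28B organoids, against 7.54, 6.44 and 5.38 CPM in control organoids (log2 fold change 1.51 ± 0.25, adjusted p = 0.00627). Rasd2, a small GTPase, measured 21.9, 20.3 and 20 CPM in FST+LIN28B organoids, against 7.7, 8.76 and 9.89 CPM in control organoids (log2 fold change 1.24 ± 0.15, adjusted p = 0.00132). Myo7a, the stereocilia myosin used as a hair cell marker, measured 9.7, 7.01 and 7.98 CPM in the FST+LIN28B libraries and 5, 4.03 and 3.68 CPM in the control libraries (log2 fold change 0.96 ± 0.20, adjusted p = 0.0212) and was not called. Pcdh15, a tip link protein, measured 22.7, 31.2 and 23.5 CPM in the FST+LIN28B libraries and 20.8, 29.6 and 31.7 CPM in the control libraries (log2 fold change -0.08), and its groups overlapped. Rasd2 lost its call when control library 2 was left out (highest adjusted p 0.0112). Espn lost its call when control library 1, 2 or 3, LIN28B library 1 or FST+LIN28B library 1 or 3 was left out (highest adjusted p 0.0444). Espn was not called with Y-linked expression in the design (adjusted p 0.0145).

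**Figure D3:**
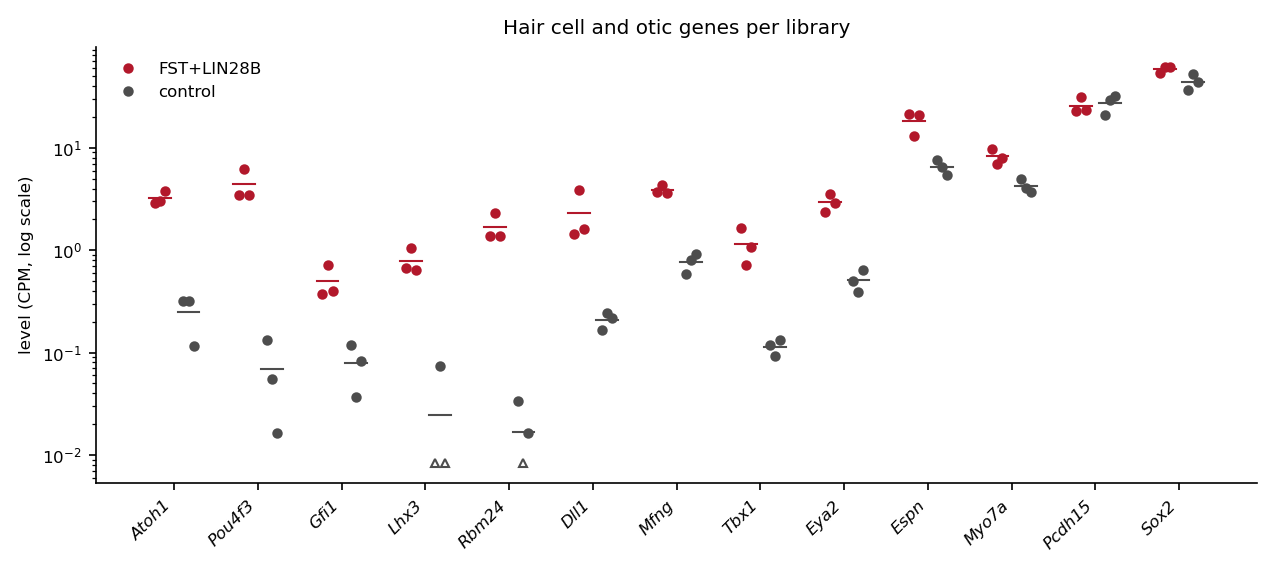
Level of hair cell, Notch, otic and supporting cell genes in each library, in CPM on a log axis. Points are single libraries, lines are group means, and open triangles at the bottom mark libraries with 0 counts. Pou4f3, Rbm24 and Dll1 are separated between FST+LIN28B and control organoids, and Pcdh15 overlaps.

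Of 31 tested supporting cell markers, 0 were called by edgeR, with a median log2 fold change of -0.12. At an unadjusted p under 0.05 there were 11, DESeq2 called 3 and limma 0. Sox2, which marks supporting cells and their progenitors, measured 53.7, 60.9 and 61.8 CPM in FST+LIN28B organoids, against 36.4, 52.6 and 44.2 CPM in control organoids (adjusted p = 0.294), and its groups did not overlap. Lgr5, a Wnt-enhancing receptor of supporting cells with progenitor capacity, measured 77, 58.2 and 93.1 CPM in the FST+LIN28B libraries and 157, 134 and 144 CPM in the control libraries (log2 fold change -0.93 ± 0.19, adjusted p = 0.0198). Prox1, a homeodomain factor of supporting cells, measured 11.4, 10.8 and 16.2 CPM in the FST+LIN28B libraries and 6.24, 3.21 and 4.36 CPM in the control libraries (log2 fold change 1.47 ± 0.33, adjusted p = 0.0292). Lgr5 and Prox1 were separated in opposite directions without being called.

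Among 29 tested genes of the Notch pathway, 2 were higher, Dll1 and Mfng, and 0 were lower, with a median of 0.10. Mfng, a Fringe glycosyltransferase that modifies Notch, measured 3.7, 4.29 and 3.64 CPM in FST+LIN28B organoids, against 0.587, 0.798 and 0.911 CPM in control organoids (log2 fold change 2.34 ± 0.36, adjusted p = 0.00414). Of 31 tested otic progenitor factors, 2 were higher and 0 were lower, with a median of 0.27. Tbx1, a T-box factor of the otic vesicle, measured 1.65, 0.718 and 1.06 CPM in FST+LIN28B organoids, against 0.117, 0.0928 and 0.133 CPM in control organoids (log2 fold change 3.30 ± 0.53, adjusted p = 0.00515). Eya2, a transcriptional coactivator with phosphatase activity, measured 2.38, 3.57 and 2.88 CPM in FST+LIN28B organoids, against 0.503, 0.39 and 0.646 CPM in control organoids (log2 fold change 2.51 ± 0.42, adjusted p = 0.00653). Tbx1, Eya2 and Mfng were all under 1 CPM in every control library. Sox11, a SoxC factor of sensory progenitors, measured 286, 306 and 393 CPM in the FST+LIN28B libraries and 206, 195 and 224 CPM in the control libraries (log2 fold change 0.66 ± 0.13, adjusted p = 0.016) and was not called. Mfng and Tbx1 each lost the call when 1 or more of control library 1, 2 and 3 and FST+LIN28B library 1, 2 and 3 were left out singly (highest adjusted p 0.0267 and 0.0337). Eya2 lost its call when control library 1, 2 or 3, LIN28B library 1 or FST+LIN28B library 1, 2 or 3 was left out (highest adjusted p 0.0438). Mfng, Tbx1 and Eya2 were not called with Y-linked expression in the design (adjusted p 0.0115, 0.0102 and 0.0126). Mfng was not called when counts were rescaled for transcript length (adjusted p 0.0895), with a log2 fold change of 1.56.

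Of 15 tested genes of glial differentiation and cochlear maturation, 1 was lower in FST+LIN28B organoids and 0 were higher. Thrb, the thyroid hormone receptor that hearing development requires, measured 19, 18.8 and 19.5 CPM in FST+LIN28B organoids, against 46, 51.1 and 62.9 CPM in control organoids (log2 fold change -1.48 ± 0.20, adjusted p = 0.00202), with no overlap between the groups. The median of the list was -0.44, with 11 values negative and 8 separated below the controls, against 15.1% of all genes. Zbtb20, a zinc finger repressor that promotes astrocyte formation, measured 122, 138 and 125 CPM in the FST+LIN28B libraries and 470.3, 259 and 366 CPM in the control libraries (log2 fold change -1.51 ± 0.45, adjusted p = 0.106). Nfix, a nuclear factor I protein, measured 29, 43.5 and 26 CPM in the FST+LIN28B libraries and 81.9, 76.3 and 76.5 CPM in the control libraries (log2 fold change -1.25 ± 0.26, adjusted p = 0.0226), and Nfic, of the same family, measured 29.1, 29 and 24.3 CPM in the FST+LIN28B libraries and 58.2, 50.4 and 46.9 CPM in the control libraries (log2 fold change -0.92 ± 0.23, adjusted p = 0.0529). These 3 genes were separated and not called. Thrb lost its call when control library 2 or 3 or FST+LIN28B library 1 or 3 was left out (highest adjusted p 0.0136).

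The genes lower in FST+LIN28B organoids included many of the extracellular matrix. Tecta, which encodes the α-tectorin of the tectorial membrane, measured 308, 392 and 243 CPM in FST+LIN28B organoids, against 1705, 1497 and 1692 CPM in control organoids (log2 fold change -2.38 ± 0.33, adjusted p = 0.00239). It was the only one of 9 tested genes for tectorial membrane and inner ear gel proteins that passed, with a list median of -0.40. Otol1, an otolith collagen-like protein, measured 396, 242 and 361 CPM in the FST+LIN28B libraries and 961, 888 and 780.0 CPM in the control libraries (log2 fold change -1.40 ± 0.33, adjusted p = 0.0366), and Otog, encoding otogelin, measured 254, 214 and 284 CPM in the FST+LIN28B libraries and 319, 271 and 287 CPM in the control libraries with overlap between the groups. Tecta lost its call when control library 1, 2 or 3 or FST+LIN28B library 1 or 3 was left out (highest adjusted p 0.0152).

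Of 40 tested collagens, 5 were lower and 0 were higher, against 0.463% and 0.793% of all genes, with a median of -0.28. Values were positive for 14, against 48% of all genes, and negative for 26. Against 15.2% and 15.1% of all genes, 7 collagens were separated above and 12 below the controls. Of those above 0 and not called, 3 were picked after their values were seen, and Col5a3 was at 1.90 (adjusted p = 0.0301), Col15a1 at 1.41 (adjusted p = 0.0276) and Col4a2 at 0.90 (adjusted p = 0.0439). Col2a1, the main fibrillar collagen of cartilage and of the tectorial membrane, measured 313, 336 and 319.7 CPM in FST+LIN28B organoids, against 1023, 1404 and 1058 CPM in control organoids (log2 fold change -1.85 ± 0.19, adjusted p = 0.000402). Col11a2, which co-assembles with it and is mutated in human deafness, measured 56.9, 65.7 and 49.1 CPM with both transgenes, against 210.2, 278 and 231 CPM in controls (log2 fold change -2.07 ± 0.22, adjusted p = 0.000491). Col9a3, a chain of the fibril-associated collagen IX, measured 75, 70.3 and 70.7 CPM with both transgenes, against 219.8, 227 and 195 CPM in controls (log2 fold change -1.57 ± 0.17, adjusted p = 0.000491). In these 3 collagens the groups were far apart, with every FST+LIN28B library well below every control. Col16a1, another fibril-associated collagen, measured 11.8, 11.2 and 10.3 CPM with both transgenes, against 23.4, 32.2 and 31 CPM in controls (log2 fold change -1.38 ± 0.15, adjusted p = 0.000784). Col27a1, a fibrillar collagen of cartilage, had the smallest fall of the 5, at 55.3, 67 and 58.9 CPM with both transgenes, against 98.7, 138 and 123 CPM in controls (log2 fold change -0.99 ± 0.12, adjusted p = 0.00139). The first 4 calls held without each of the 12 libraries. Col27a1 lost its call when control library 3 or FST+LIN28B library 1 or 3 was left out (highest adjusted p 0.0122).

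Of 42 tested non-collagen matrix genes, 3 were lower and 1 was higher, with a median of -0.41 and 31 negative values. Mfap2, a glycoprotein of elastic microfibrils, measured 7.96, 4.57 and 5.66 CPM in FST+LIN28B organoids, against 25.1, 25.8 and 25.2 CPM in control organoids (log2 fold change -2.06 ± 0.21, adjusted p = 0.0004). Fbln5, an elastic fibre protein, measured 0.548, 0.529 and 0.314 CPM in FST+LIN28B organoids, against 2.31, 2.04 and 1.74 CPM in control organoids (log2 fold change -2.12 ± 0.28, adjusted p = 0.00174), and Chadl, a chondroadherin-like matrix protein, measured 10.4, 10.8 and 7.37 CPM with both transgenes, against 20.1, 22.7 and 19.1 CPM in controls (log2 fold change -1.12 ± 0.16, adjusted p = 0.00307). The groups did not overlap for any of the 3. Tnc, encoding the glycoprotein tenascin C, went the other way, at 12.6, 24.8 and 15.4 CPM with both transgenes, against 3.24, 5.46 and 6.05 CPM in controls (log2 fold change 1.84 ± 0.30, adjusted p = 0.00542). The call of Mfap2 held without each library. Fbln5, Chadl and Tnc each lost the call when 1 or more of control library 1, 2 and 3 and FST+LIN28B library 1, 2 and 3 were left out singly (highest adjusted p 0.0111, 0.0205 and 0.0255). Chadl and Tnc were not called with Y-linked expression in the design (adjusted p 0.0103 and 0.0112).

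Of 37 tested matrix proteases and inhibitors, 3 were lower and 1 was higher, with a median of -0.05. Htra1, a secreted serine protease, measured 0.971, 1.27 and 1.64 CPM in FST+LIN28B organoids, against 5.72, 3.88 and 3.88 CPM in control organoids (log2 fold change -1.80 ± 0.27, adjusted p = 0.00388). Adamts18, a secreted metalloprotease, measured 4.73, 5.29 and 5.09 CPM with both transgenes, against 13.6, 16.2 and 19.7 CPM in controls (log2 fold change -1.71 ± 0.23, adjusted p = 0.00218), and Adamts2, which trims procollagen, had a log2 fold change of -0.71 ± 0.13, adjusted p = 0.00995. Adamts16 was higher, at 5.89, 6.54 and 5.58 CPM with both transgenes, against 2.9, 1.86 and 2.33 CPM in controls (log2 fold change 1.34 ± 0.22, adjusted p = 0.00542). Of 34 tested integrins and laminins, Itga9 was lower, at 127, 136 and 123 CPM with both transgenes, against 233, 271 and 246 CPM in controls (log2 fold change -0.96 ± 0.12, adjusted p = 0.00145), and Itga11, a collagen receptor, was higher, at 4.37, 3.52 and 4.6 CPM with both transgenes, against 1.34, 2 and 1.27 CPM in controls (log2 fold change 1.43 ± 0.25, adjusted p = 0.0083). These 6 genes thus held both directions, and the median of the integrin list was -0.18. Over these lists and the collagens and tectorial genes, 13 genes were lower, and the number was 6 or 7 when control library 2 or 3 or FST+LIN28B library 1 or 3 was left out, and 21 when FST library 2 was. Htra1, Adamts18, Itga9 and Adamts16 each lost the call when 1 or more of control library 1, 2 and 3 and FST+LIN28B library 1, 2 and 3 were left out singly (highest adjusted p 0.0235, 0.0146, 0.0134 and 0.0362). Itga11 and Adamts2 each lost the call when 1 or more of control library 1, 2 and 3, FST library 1 and 3, LIN28B library 1, 2 and 3 and FST+LIN28B library 1, 2 and 3 were left out singly (highest adjusted p 0.0589 and 0.0622). Adamts2, Adamts16 and Itga11 were not called with Y-linked expression in the design (adjusted p 0.0231, 0.0145 and 0.0191). Adamts2, Adamts16 and Itga11 were not called when counts were rescaled for transcript length (adjusted p 0.0671, 0.0101 and 0.0107), with log2 fold changes of -0.51, 1.36 and 1.47.

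**Figure D4:**
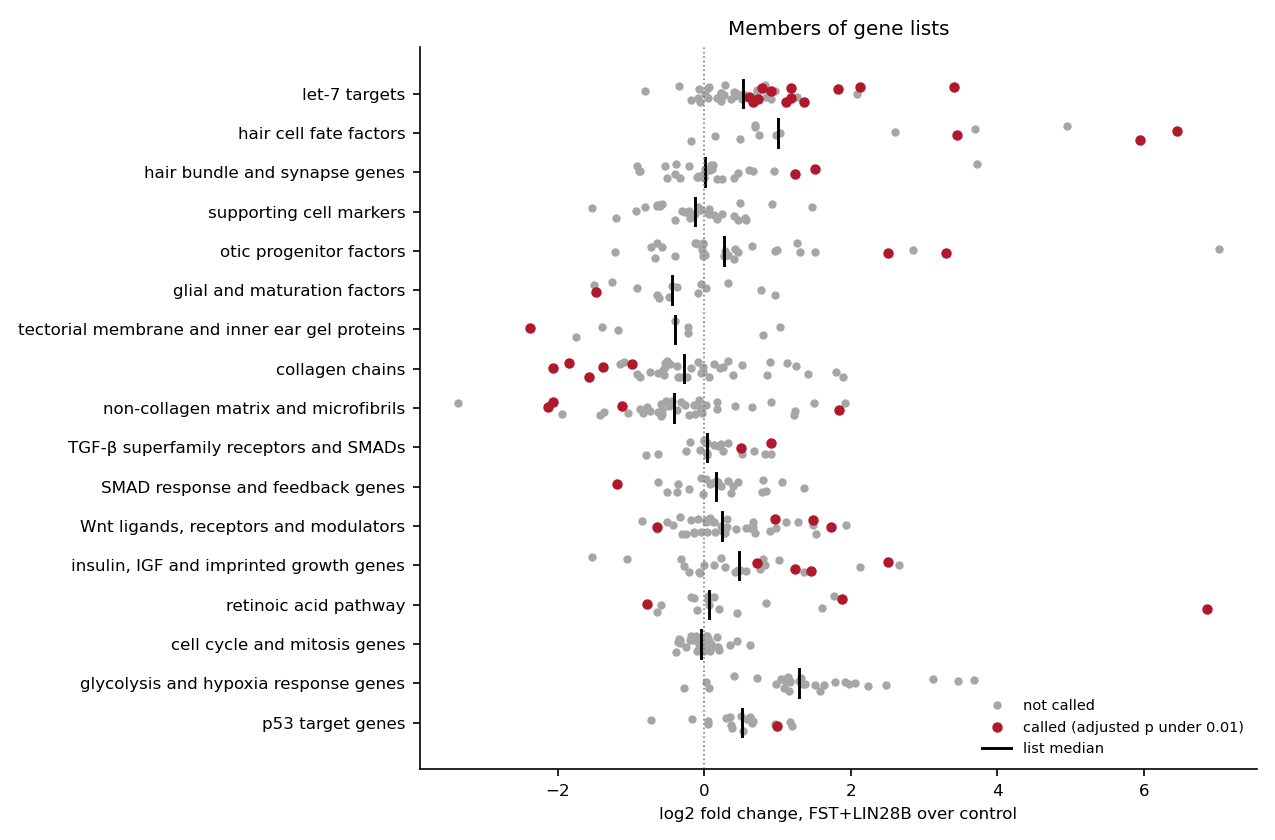
Log2 fold change of FST+LIN28B over control for the tested members of 17 gene lists. Each point is a gene, red points are genes with an adjusted p under 0.01, and the bar is the list's median. Sall4, among the otic progenitor factors, had 0 counts in all 3 controls and is drawn at its fitted value, which is no measured fold. The let-7 targets and hair cell fate factors have medians of 0.53 and 1.01, and the glycolysis and hypoxia list has a median of 1.30 with no gene called.

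Ligands and extracellular antagonists of the TGF-β superfamily, whose activins follistatin binds, held 0 called genes among 36 tested by edgeR, with a median of -0.15. At an unadjusted p under 0.05 there were 14, DESeq2 called 6 and limma 3. Inhba, which encodes the activin A subunit, measured 65.4, 45.8 and 77.9 CPM in FST+LIN28B organoids, against 36.2, 33.1 and 35.1 CPM in control organoids (log2 fold change 0.86 ± 0.17, adjusted p = 0.0146). Tgfb2 measured 484, 528 and 576 CPM in FST+LIN28B organoids, against 736, 718 and 735 CPM in control organoids (log2 fold change -0.46 ± 0.13, adjusted p = 0.0674), and Bmp6 measured 19.7, 16.7 and 21 CPM in the FST+LIN28B libraries and 30.9, 34.3 and 30.5 CPM in the control libraries (log2 fold change -0.74 ± 0.14, adjusted p = 0.0107). All 3 were separated, Inhba above and Tgfb2 and Bmp6 below the controls. Bmp2 had a log2 fold change of -0.97 (adjusted p = 0.163). Of 23 tested receptors and SMADs, 2 were higher and 0 were lower, with a median of 0.04. Tgfbr1 measured 128, 132 and 164 CPM with both transgenes, against 69.8, 73.7 and 81.4 CPM in controls (log2 fold change 0.92 ± 0.12, adjusted p = 0.00139). Smad3, a transcription factor that activin and TGF-β receptors activate, measured 102, 99.6 and 101 CPM with both transgenes, against 70.6, 73.9 and 68.7 CPM in controls (log2 fold change 0.51 ± 0.08, adjusted p = 0.00536). Acvr2b, an activin receptor, measured 20.3, 20.8 and 19.6 CPM in the FST+LIN28B libraries and 12.2, 9.84 and 10.3 CPM in the control libraries (log2 fold change 0.91 ± 0.17, adjusted p = 0.0128) and was not called. Smad3 lost its call when control library 1, 2 or 3, FST library 1, LIN28B library 1 or FST+LIN28B library 1, 2 or 3 was left out (highest adjusted p 0.0393). Tgfbr1 lost its call when control library 2 was left out (highest adjusted p 0.0116). Smad3 was not called with Y-linked expression in the design (adjusted p 0.0161).

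Of 23 tested genes that respond to SMADs, 1 was lower and 0 were higher, with a median of 0.16. Pmepa1, a membrane protein that is induced by TGF-β and retains SMADs, measured 5.8, 7.14 and 5.71 CPM in FST+LIN28B organoids, against 14.4, 14.2 and 13.7 CPM in control organoids (log2 fold change -1.18 ± 0.14, adjusted p = 0.000853). Smad7, the inhibitory SMAD, measured 13.1, 11.5 and 13.8 CPM in the FST+LIN28B libraries and 22.6, 20.2 and 16.6 CPM in the control libraries (log2 fold change -0.63 ± 0.12, adjusted p = 0.0128), and Id4, an inhibitor of bHLH factors, measured 33.6, 44.2 and 32.8 CPM in the FST+LIN28B libraries and 18.4, 19.1 and 26.1 CPM in the control libraries (log2 fold change 0.80 ± 0.16, adjusted p = 0.0187). Both were separated, in opposite directions, and were not called. Of 22 tested mesenchymal genes, 1 was lower and 0 were higher, with a median of 0.05. Scx, a bHLH factor of tendon and cartilage progenitors, measured 3.7, 4.89 and 2.63 CPM in FST+LIN28B organoids, against 12.3, 13.4 and 11.1 CPM in control organoids (log2 fold change -1.71 ± 0.25, adjusted p = 0.00307), and Prrx1, a homeodomain factor of mesenchyme, had a log2 fold change of -1.01 (adjusted p = 0.0767). The call of Pmepa1 held without each library. Scx lost its call when control library 1, 2 or 3 or FST+LIN28B library 1 or 3 was left out (highest adjusted p 0.0205). Scx was not called with Y-linked expression in the design (adjusted p 0.01).

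Some of these genes also differed from organoids with LIN28B alone, a comparison in which 95 genes were called (0.506%). The comparisons use the same FST+LIN28B libraries. That number was 40 and 42 when LIN28B library 1 or 2 was left out, 34, 46 and 59 when FST+LIN28B library 1, 2 or 3 was, and 225 when FST library 2 was. Mfap2 measured 34.2, 35 and 50.6 CPM in LIN28B organoids and 5.41, 4.56 and 6.02 CPM in FST organoids, and FST+LIN28B was below LIN28B by a log2 fold change of -2.72 ± 0.21, adjusted p = 0.000155. Htra1 measured 18, 16 and 15.8 CPM in LIN28B organoids and 0.894, 0.907 and 1.61 CPM in FST organoids (FST+LIN28B over LIN28B -3.69 ± 0.29, adjusted p = 0.000155). Scx measured 18.3, 26.5 and 26.7 CPM in LIN28B organoids and 2.89, 4.15 and 4.93 CPM in FST organoids (FST+LIN28B over LIN28B -2.67 ± 0.26, adjusted p = 0.000464). In all 3 genes LIN28B organoids were above controls and FST organoids were below them in every library. Pmepa1 measured 16.6, 19.7 and 17.2 CPM in LIN28B organoids and 5.6, 7.02 and 6.16 CPM in FST organoids (FST+LIN28B over LIN28B -1.52 ± 0.14, adjusted p = 0.000464). Fbln5 and Col9a3 were lower in FST+LIN28B than in LIN28B organoids as well (-2.80 ± 0.28, adjusted p = 0.000562 for Fbln5, and -1.50 ± 0.17, adjusted p = 0.00101 for Col9a3). The other lower matrix genes described above were not called against LIN28B organoids. Tecta, Col11a2, Chadl, Col16a1 and Col27a1 had log2 fold changes over LIN28B of 0.16, 0.19, 0.08, 0.59 and 0.46. Col2a1, Itga9, Adamts18 and Adamts2 were at -0.78, -0.33, -0.27 and -0.08. Cnr1, the cannabinoid receptor, picked after its values were seen, measured 3.09, 4.57 and 4.95 CPM in FST+LIN28B organoids, against 11.6, 12.2 and 17.9 CPM in control organoids (log2 fold change -1.73 ± 0.21, adjusted p = 0.00128), and was lower than in LIN28B organoids too (-2.25 ± 0.22, adjusted p = 0.000464). Among let-7 targets, Hmga2 measured 215, 200 and 177 CPM in LIN28B organoids and was not called against them (FST+LIN28B over LIN28B -0.16 ± 0.15, adjusted p = 0.957). Igf2bp1, Igf2bp2, Arid3a, Hic2 and Trim71 were not called in that comparison either (adjusted p 0.988, 0.363, 0.186, 0.461 and 0.0425). Nor were the hair cell factors Pou4f3, Rbm24 and Dll1 (adjusted p 0.453, 0.156 and 0.351). In LIN28B organoids against controls, edgeR called Pou4f3 and Rbm24 higher (adjusted p 0.00421 and 0.00879) and did not call Dll1 (adjusted p 0.0117).

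Of 28 tested epithelial genes, 2 keratins were higher in FST+LIN28B organoids and 0 were lower, with a median of 0.12. Krt19 measured 39.3, 34.1 and 31.4 CPM in FST+LIN28B organoids, against 5.72, 9.58 and 8.43 CPM in control organoids (log2 fold change 2.14 ± 0.30, adjusted p = 0.00275), and Krt7 measured 24.5, 21 and 15.8 CPM in FST+LIN28B organoids, against 7.54, 6.4 and 4.31 CPM in control organoids (log2 fold change 1.75 ± 0.25, adjusted p = 0.00267). Both encode keratins of simple epithelia, and the values did not overlap between the groups. Krt19 and Krt7 each lost the call when 1 or more of control library 1, 2 and 3 and FST+LIN28B library 1 were left out singly (highest adjusted p 0.0178 and 0.017).

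Of 27 tested IGF and imprinted growth genes, 4 were higher in FST+LIN28B organoids and 0 were lower, against 0.793% and 0.463% of all genes. The median was 0.47, and 14 were separated above the controls, against 15.2% of all genes. Cdkn1c, the imprinted CDK inhibitor p57, measured 133, 125 and 133 CPM in FST+LIN28B organoids, against 23.5, 25.5 and 20.1 CPM in control organoids (log2 fold change 2.50 ± 0.21, adjusted p = 0.000172). It measured 74.7, 61 and 55.4 CPM in LIN28B organoids and 47.3, 24.3 and 40.5 CPM in FST organoids, below every FST+LIN28B library. The difference from LIN28B organoids was not called (FST+LIN28B over LIN28B 1.04 ± 0.20, adjusted p = 0.0246). Peg3, a paternally expressed zinc finger gene, measured 496, 368 and 568 CPM with both transgenes, against 215, 197 and 196 CPM in controls (log2 fold change 1.24 ± 0.15, adjusted p = 0.00139), and Grb10, an imprinted adaptor that restrains insulin and IGF receptors, measured 1062, 968 and 1212 CPM with both transgenes, against 645, 678 and 648 CPM in controls (log2 fold change 0.72 ± 0.11, adjusted p = 0.0043). Igfbpl1, related to the IGF-binding proteins, measured 35.2, 23.7 and 39.9 CPM with both transgenes, against 10.7, 12.7 and 12.5 CPM in controls (log2 fold change 1.46 ± 0.23, adjusted p = 0.00536). Igfbpl1 measured 5.53, 4.62 and 7.17 CPM in LIN28B organoids and 36.6, 21.7 and 25.6 CPM in FST organoids (FST+LIN28B over LIN28B 2.51 ± 0.24, adjusted p = 0.000464). Igfbp2 measured 149.8, 74.5 and 170.3 CPM in the FST+LIN28B libraries and 26.5, 18.2 and 17.9 CPM in the control libraries (log2 fold change 2.66 ± 0.49, adjusted p = 0.016) and Igfbp5 measured 1119, 849.9 and 1637 CPM in the FST+LIN28B libraries and 2793, 2433 and 2265 CPM in the control libraries (log2 fold change -1.05 ± 0.20, adjusted p = 0.013), separated in opposite directions and not called. The call of Cdkn1c held without each library. Peg3 and Grb10 each lost the call when 1 or more of control library 1, 2 and 3 and FST+LIN28B library 1 and 3 were left out singly (highest adjusted p 0.0121 and 0.0308). Igfbpl1 lost its call when control library 1, 2 or 3, LIN28B library 1 or FST+LIN28B library 1 or 3 was left out (highest adjusted p 0.0306). Grb10 and Igfbpl1 were not called with Y-linked expression in the design (adjusted p 0.0114 and 0.0124).

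Of 44 tested genes of the cell cycle and mitosis, 0 were called by edgeR, with a median of -0.04. At an unadjusted p under 0.05 there were 6, DESeq2 called 1 and limma 0. The FST+LIN28B libraries were not alike on this list. Replicates 1, 2 and 3 had 13, 24 and 5 genes above all 3 controls and 17, 9 and 32 below all 3. Their median log2 ratios to the control mean were -0.01, 0.07 and -0.21. Mki67, which marks cycling cells, measured 1091, 1122 and 1140.0 CPM in FST+LIN28B organoids, against 1502, 1441 and 1299 CPM in control organoids (adjusted p = 0.151), and Top2a, the topoisomerase of dividing cells, had a log2 fold change of -0.06 (adjusted p = 0.893). E2f1, a factor of S phase entry, measured 52.4, 59.2 and 43.9 CPM in the FST+LIN28B libraries and 34.1, 34.3 and 32.1 CPM in the control libraries (log2 fold change 0.63 ± 0.12, adjusted p = 0.0157). Among 10 CDK inhibitors and pocket proteins Cdkn1c was the only one called, and Cdkn1a, encoding p21, measured 146, 133 and 134 CPM in the FST+LIN28B libraries and 98.7, 91.3 and 76.7 CPM in the control libraries (log2 fold change 0.63 ± 0.16, adjusted p = 0.0561). Mki67 and E2f1 were thus separated in opposite directions, and neither was called. Of 18 tested targets of p53, 1 was higher and 0 were lower, with a median of 0.52. Of these, 13 were separated above the controls, against 15.2% of all genes. Plk2, a polo-like kinase, measured 108, 105 and 109 CPM with both transgenes, against 54.9, 56.9 and 50.1 CPM in controls (log2 fold change 0.99 ± 0.17, adjusted p = 0.00835), while Mdm2, the ligase that degrades p53, had a log2 fold change of 0.37 (adjusted p = 0.0279). Jun, an AP-1 subunit, was the called member of 22 immediate early and heat shock genes, at 35.6, 30.9 and 36 CPM with both transgenes, against 11.4, 12.4 and 10.5 CPM in controls (log2 fold change 1.58 ± 0.21, adjusted p = 0.00174). Of 30 tested genes of ribosome production and the Myc network, 0 were called by edgeR, 9 at an unadjusted p under 0.05, 4 by DESeq2 and 0 by limma, with a median of 0.18. Of 25 genes of cholesterol and fatty acid synthesis, 0 were called by edgeR, 9 at an unadjusted p under 0.05, 0 by DESeq2 and 1 by limma, with a median of 0.18. Jun lost its call when control library 1, 2 or 3 or FST+LIN28B library 1 or 3 was left out (highest adjusted p 0.0146). Plk2 lost its call when control library 1, 2 or 3, FST library 1, LIN28B library 1 or FST+LIN28B library 1, 2 or 3 was left out (highest adjusted p 0.0558). Plk2 was not called with Y-linked expression in the design (adjusted p 0.021). Plk2 was not called when counts were rescaled for transcript length (adjusted p 0.0119), with a log2 fold change of 0.99.

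Ligands and receptors of the Wnt pathway were called in both directions. Of 42 tested, 3 were higher and 1 was lower, with a median of 0.24. Wnt6 measured 55.2, 63.5 and 37.8 CPM in FST+LIN28B organoids, against 18.2, 15.1 and 13.7 CPM in control organoids (log2 fold change 1.74 ± 0.19, adjusted p = 0.0007). Fzd9, a Wnt receptor, measured 19.9, 21.1 and 17.8 CPM with both transgenes, against 6.74, 8.37 and 5.95 CPM in controls (log2 fold change 1.48 ± 0.15, adjusted p = 0.000491), and Fzd10, of the same family, measured 69.7, 50 and 60.7 CPM with both transgenes, against 33.9, 31.2 and 27.6 CPM in controls (log2 fold change 0.96 ± 0.17, adjusted p = 0.00917). Wnt5a, a ligand of the non-canonical pathway, was lower in every library, at 252, 253 and 252 CPM with both transgenes, against 402, 400.5 and 381 CPM in controls (log2 fold change -0.64 ± 0.10, adjusted p = 0.00542). Of 19 tested Wnt targets, Sp8, a zinc finger factor of limb development, was higher, at 36.9, 30.9 and 37.5 CPM with both transgenes, against 8.82, 8.05 and 6.31 CPM in controls (log2 fold change 2.19 ± 0.17, adjusted p = 0.000102). Sp6, a related factor that is no member of the list, measured 14.4, 11.2 and 11.4 CPM with both transgenes, against 2.95, 2.91 and 2.07 CPM in controls (log2 fold change 2.22 ± 0.34, adjusted p = 0.0038). The calls of Wnt6, Fzd9 and Sp8 held without each library. Sp6 lost its call when control library 1, 2 or 3 or FST+LIN28B library 1 or 3 was left out (highest adjusted p 0.0299). Wnt5a and Fzd10 each lost the call when 1 or more of control library 1, 2 and 3, FST library 1, LIN28B library 1, 2 and 3 and FST+LIN28B library 1, 2 and 3 were left out singly (highest adjusted p 0.0351 and 0.062). Fzd10, Wnt5a and Sp6 were not called with Y-linked expression in the design (adjusted p 0.0189, 0.0136 and 0.0115). Fzd10 was not called when counts were rescaled for transcript length (adjusted p 0.0105), with a log2 fold change of 0.99.

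The FGF and ERK genes held 1 higher and 1 lower gene among 42 tested, with a median of 0.01. Fgfr2, an FGF receptor needed for inner ear formation, measured 5.75, 7.64 and 5.16 CPM in FST+LIN28B organoids, against 0.721, 0.482 and 0.282 CPM in control organoids (log2 fold change 3.64 ± 0.50, adjusted p = 0.00218). Erbb4, a neuregulin receptor, measured 0.689, 0.661 and 1.17 CPM in FST+LIN28B organoids, against 2.46, 3.19 and 3.01 CPM in control organoids (log2 fold change -1.78 ± 0.32, adjusted p = 0.00905). Neither gene overlapped between the groups. The value of Erbb4 depended on the scaling, and limma on log2(TPM + 1) gave -0.32 (adjusted p = 0.552). Dusp9, a phosphatase that inactivates MAP kinases, measured 28.5, 22.3 and 21.9 CPM with both transgenes, against 7.28, 7.44 and 6.31 CPM in controls (log2 fold change 1.79 ± 0.17, adjusted p = 0.0003), and its call held without each library. Fgfr2 lost its call when control library 2 or 3 was left out (highest adjusted p 0.0178). Erbb4 lost its call when control library 1, 2 or 3, LIN28B library 1, 2 or 3 or FST+LIN28B library 1, 2 or 3 was left out (highest adjusted p 0.0534). Erbb4 was not called with Y-linked expression in the design (adjusted p 0.0139). Erbb4 was not called when counts were rescaled for transcript length (adjusted p 0.352), with a log2 fold change of -0.89.

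Retinoic acid, made from retinol in successive oxidations, patterns the early inner ear. Of 17 tested genes of its pathway, 2 were higher and 1 was lower, with a median of 0.07. Rdh10, the dehydrogenase that makes retinaldehyde, measured 334, 326 and 192 CPM in FST+LIN28B organoids, against 104, 59.2 and 67.9 CPM in control organoids (log2 fold change 1.88 ± 0.30, adjusted p = 0.00561). Cyp26a1, which degrades retinoic acid, had 77, 13 and 75 counts in FST+LIN28B organoids and 1, 0 and 0 counts in control organoids. Its summed level was 159 times that of controls, with a 95% counting interval of 28.2 to 6335 (exact binomial), and the adjusted p was 0.00463. Rarg, a retinoic acid receptor, was lower, at 14.4, 11.4 and 10.8 CPM with both transgenes, against 19.9, 23 and 19.7 CPM in controls (log2 fold change -0.78 ± 0.12, adjusted p = 0.00505). Aldh1a1, a retinaldehyde dehydrogenase, measured 122, 84.4 and 131 CPM in the FST+LIN28B libraries and 43.8, 21.2 and 34.4 CPM in the control libraries (log2 fold change 1.77 ± 0.36, adjusted p = 0.0236), and Crabp2, a binding protein that delivers retinoic acid to the nucleus, measured 114, 116 and 102 CPM in the FST+LIN28B libraries and 65.2, 64 and 56.7 CPM in the control libraries (log2 fold change 0.84 ± 0.17, adjusted p = 0.018). Aldh1a1 and Crabp2 were separated above the controls and were not called. Cyp26a1 lost its call when control library 1, 2 or 3 or FST+LIN28B library 1 or 3 was left out (highest adjusted p 0.036). Rdh10 and Rarg each lost the call when 1 or more of control library 1, 2 and 3, FST library 1, LIN28B library 1 and FST+LIN28B library 1, 2 and 3 were left out singly (highest adjusted p 0.0389 and 0.0306). Rdh10, Cyp26a1 and Rarg were not called with Y-linked expression in the design (adjusted p 0.0179, 0.0102 and 0.0124). Rarg was not called when counts were rescaled for transcript length (adjusted p 0.0315), with a log2 fold change of -0.73.

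Genes of ion transport were called singly. Of 55 tested potassium channel genes, 2 were higher and 1 was lower, with a median of 0.02. Lrrc55, an auxiliary subunit of BK channels, measured 10.4, 5.8 and 4.97 CPM in FST+LIN28B organoids, against 0.436, 0.297 and 0.364 CPM in control organoids (log2 fold change 4.26 ± 0.62, adjusted p = 0.00307), and Kcna5, a voltage-gated channel, measured 7.22, 7.96 and 7 CPM with both transgenes, against 1.71, 2.23 and 1.82 CPM in controls (log2 fold change 1.95 ± 0.24, adjusted p = 0.00127). Kcnn4, a calcium-activated channel, was lower, at 8.66, 8.18 and 7.04 CPM with both transgenes, against 18.2, 26.1 and 28.5 CPM in controls (log2 fold change -1.61 ± 0.18, adjusted p = 0.000853). Of 20 tested genes of proton pumping and anion transport, Car12, a membrane carbonic anhydrase, was higher, at 20.4, 13 and 23.4 CPM with both transgenes, against 5.72, 6.51 and 6.86 CPM in controls (log2 fold change 1.57 ± 0.24, adjusted p = 0.0042). Atp6v1b1, a proton pump subunit whose loss causes renal acidosis with deafness in humans, was lower, at 1.61, 1.4 and 0.767 CPM with both transgenes, against 9.57, 8.87 and 9.38 CPM in controls (log2 fold change -2.88 ± 0.34, adjusted p = 0.00104). The groups were separated for all 5 genes. The calls of Kcnn4 and Atp6v1b1 held without each library. Lrrc55, Kcna5 and Car12 each lost the call when 1 or more of control library 1, 2 and 3 and FST+LIN28B library 1 and 3 were left out singly (highest adjusted p 0.0244, 0.0115 and 0.0259). Car12 was not called with Y-linked expression in the design (adjusted p 0.0106).

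Of 11 tested protocadherins outside the clusters, 2 were higher and 0 were lower, with a median of -0.11. Pcdh8 measured 20.5, 19.8 and 26.6 CPM in FST+LIN28B organoids, against 7.44, 5.79 and 5.37 CPM in control organoids (log2 fold change 1.84 ± 0.17, adjusted p = 0.000294), and Pcdh20 measured 0.752, 2 and 1.06 CPM in FST+LIN28B organoids, against 0.0168, 0.0186 and 0.0828 CPM in control organoids (adjusted p = 0.00307). Pcdh20 rested on 1, 1 and 5 counts in the control libraries. Sema3d, a secreted guidance cue, was the 1 gene called among 70 of axon guidance, a share of 1.43% against 1.26% of all genes, with a list median of 0.06. It measured 18.3, 17.2 and 26 CPM in FST+LIN28B organoids, against 94.3, 112 and 118 CPM in control organoids (log2 fold change -2.40 ± 0.20, adjusted p = 0.000139). No library of the groups overlapped. Cbln2, a secreted organiser of synapses, was the 1 called among 45 neuronal and synaptic genes, whose median was 0.00. It measured 78.2, 20.7 and 114 CPM in FST+LIN28B organoids, against 0.922, 0.705 and 0.53 CPM in control organoids (log2 fold change 6.62 ± 0.71, adjusted p = 0.00127). The FST+LIN28B values of Cbln2 spread widely, with replicate 2 the lowest. The calls of Pcdh8 and Sema3d held without each library. Cbln2 and Pcdh20 each lost the call when 1 or more of control library 1, 2 and 3 and FST+LIN28B library 3 were left out singly (highest adjusted p 0.0117 and 0.0233).

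Outside these lists, the higher genes of largest fold included receptors, transcription factors and interferon-inducible GTPases. Aplnr, the apelin receptor, measured 3.67, 1.66 and 2.93 CPM in FST+LIN28B organoids, against 0.151, 0.167 and 0.0828 CPM in control organoids (log2 fold change 4.35 ± 0.56, adjusted p = 0.00148). Gbp8 measured 4.81, 8.77 and 10.7 CPM with both transgenes, against 0.822, 0.557 and 1.51 CPM in controls (log2 fold change 3.06 ± 0.49, adjusted p = 0.00536) and Gbp9 measured 17.2, 10 and 15.5 CPM with both transgenes, against 3.81, 2.69 and 2.58 CPM in controls (log2 fold change 2.23 ± 0.39, adjusted p = 0.0078), both guanylate-binding proteins. Of 22 tested interferon-stimulated genes, 0 were called by edgeR, 3 at an unadjusted p under 0.05, 1 by DESeq2 and 0 by limma, with a median of -0.04. Tbx15, a T-box factor of mesoderm, measured 18.9, 12.7 and 22.6 CPM with both transgenes, against 2.58, 3.95 and 5.33 CPM in controls (log2 fold change 2.19 ± 0.33, adjusted p = 0.00375), and Meis2, a TALE homeodomain factor, measured 92.7, 71.8 and 95.9 CPM with both transgenes, against 27.6, 17.1 and 12.7 CPM in controls (log2 fold change 2.18 ± 0.27, adjusted p = 0.00148). Fndc3c1 measured 41, 24.1 and 30 CPM with both transgenes, against 6.15, 7.18 and 4.01 CPM in controls (log2 fold change 2.45 ± 0.29, adjusted p = 0.00106). By smallest p, the higher genes included Sik1, a salt-inducible kinase, at 41.8, 37 and 47.9 CPM with both transgenes, against 9.04, 10.4 and 9.64 CPM in controls (log2 fold change 2.12 ± 0.18, adjusted p = 0.000178), and Dnmt3b, a de novo DNA methyltransferase, at 58.9, 51 and 54.5 CPM with both transgenes, against 28.4, 29.1 and 25.6 CPM in controls (log2 fold change 0.98 ± 0.09, adjusted p = 0.000215). None of these genes overlapped between the groups. Fndc3c1, Sik1 and Dnmt3b were called without each library. Aplnr, Gbp8, Tbx15 and Meis2 each lost the call when 1 or more of control library 1, 2 and 3 and FST+LIN28B library 1, 2 and 3 were left out singly (highest adjusted p 0.0133, 0.0315, 0.0244 and 0.0126). Gbp9 lost its call when control library 1, 2 or 3, FST library 1, LIN28B library 2 or FST+LIN28B library 1 or 3 was left out (highest adjusted p 0.0548). Gbp8 and Gbp9 were not called with Y-linked expression in the design (adjusted p 0.0102 and 0.0115). Gbp8 was not called when counts were rescaled for transcript length (adjusted p 0.0121), with a log2 fold change of 3.02.

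The lower genes of largest fold were led by Wscd2, with 0.815, 1.32 and 0.836 CPM in FST+LIN28B organoids, against 8.45, 11.1 and 10.9 CPM in control organoids (log2 fold change -3.36 ± 0.39, adjusted p = 0.000853). Acox2, a peroxisomal oxidase of bile acid synthesis, measured 1.25, 1.4 and 1.08 CPM with both transgenes, against 8.97, 10.1 and 8.58 CPM in controls (log2 fold change -2.89 ± 0.33, adjusted p = 0.00086), and Slc6a15, a transporter of neutral amino acids, measured 7.54, 6.35 and 8.24 CPM with both transgenes, against 27.2, 38.4 and 57.7 CPM in controls (log2 fold change -2.48 ± 0.23, adjusted p = 0.000294). Every FST+LIN28B library of these 3 genes was well below the lowest control. Vegfc, a lymphatic growth factor, measured 0.768, 1.02 and 0.801 CPM with both transgenes, against 3.34, 3.71 and 3.59 CPM in controls (log2 fold change -2.04 ± 0.27, adjusted p = 0.00174). Its receptor gene Flt4, picked after its values were seen, was higher, at 18.1, 9.6 and 17.2 CPM with both transgenes, against 4.98, 3.9 and 2.58 CPM in controls (log2 fold change 1.97 ± 0.30, adjusted p = 0.0042). Endothelial cells can express Flt4 and Aplnr. Of their 8 markers, the 6 tested summed to 82.7 to 117 CPM in FST+LIN28B organoids and 30.7 to 46 CPM in control organoids, mostly from Tek. The median log2 fold change of these 6 markers was 0.01. The part of such cells in these values was not tested. Cspg5, a chondroitin sulfate proteoglycan, measured 6.39, 3.82 and 6.31 CPM with both transgenes, against 18.4, 17.9 and 17.2 CPM in controls (log2 fold change -1.69 ± 0.19, adjusted p = 0.000784), and Fam49a measured 57.3, 66.6 and 61.6 CPM with both transgenes, against 124, 136 and 146 CPM in controls (log2 fold change -1.13 ± 0.11, adjusted p = 0.000398). The remaining lower genes of largest fold were Fibin, Stk32b, Cpxm2, Slc24a3, Vstm4, Fam198a, Sstr1, Fndc1 and Sdk2, with log2 fold changes from -2.63 to -1.87. Vegfc, Flt4, Fibin, Vstm4 and Fam198a each lost the call when 1 or more of control library 1, 2 and 3 and FST+LIN28B library 1, 2 and 3 were left out singly (highest adjusted p 0.0146, 0.0255, 0.0161, 0.0337 and 0.0371). Stk32b, Cpxm2, Slc24a3, Sstr1, Fndc1 and Sdk2 each lost the call when 1 or more of control library 1, 2 and 3, FST library 1, 2 and 3, LIN28B library 1, 2 and 3 and FST+LIN28B library 1, 2 and 3 were left out singly (highest adjusted p 0.0343, 0.0324, 0.0324, 0.039, 0.0397 and 0.038). Flt4, Stk32b, Cpxm2, Slc24a3, Vstm4, Fam198a, Sstr1 and Fndc1 were not called with Y-linked expression in the design (adjusted p 0.0115, 0.0121, 0.0144, 0.0125, 0.0163, 0.0144, 0.0214 and 0.019). Sdk2 was not called when counts were rescaled for transcript length (adjusted p 0.0107), with a log2 fold change of -1.84.

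Genes of glycolysis and of the hypoxia response split the FST+LIN28B libraries. Of 31 tested, 0 were called by edgeR, 26 at an unadjusted p under 0.05, 15 by DESeq2 and 0 by limma. The median log2 fold change was 1.30, and 30 values were positive. FST+LIN28B replicates 1, 2 and 3 had 29, 19 and 28 of the 31 genes above all 3 controls, and their median log2 ratios to the control mean were 1.52, 0.22 and 1.71. Slc16a3, the lactate exporter, measured 277, 23.1 and 339 CPM in FST+LIN28B organoids, against 26.4, 17.4 and 14 CPM in control organoids (log2 fold change 3.46 ± 1.02, adjusted p = 0.115). Car9, a hypoxia-induced carbonic anhydrase, measured 84.8, 6.88 and 116 CPM in FST+LIN28B organoids, against 5.92, 5.4 and 4.77 CPM in control organoids (log2 fold change 3.69 ± 1.11, adjusted p = 0.123). Bnip3, a mitophagy receptor induced by hypoxia, measured 288, 44.1 and 452 CPM in the FST+LIN28B libraries and 45.7, 44 and 50.9 CPM in the control libraries, and Ldha, lactate dehydrogenase A, measured 1557, 609 and 1561 CPM in the FST+LIN28B libraries and 506, 486 and 438 CPM in the control libraries. Replicate 2 was close to the controls for all 4 genes, and replicates 1 and 3 were several-fold above them. Not every member followed, as Gapdh, a glycolytic dehydrogenase, measured 1265, 1388 and 2078 CPM in the FST+LIN28B libraries and 731, 817 and 681 CPM in the control libraries (adjusted p = 0.0189). Aldoc, an aldolase, measured 141, 92.3 and 142 CPM in the FST+LIN28B libraries and 146, 159 and 148 CPM in the control libraries (adjusted p = 0.633). Slc2a1, a glucose transporter, measured 291, 102 and 331 CPM in the FST+LIN28B libraries and 67.8, 66.2 and 56.8 CPM in the control libraries (log2 fold change 1.92 ± 0.43, adjusted p = 0.0341). With FST+LIN28B replicate 2 left out, 5 of the genes were called, and with FST replicate 2 left out 2 were. Replicate 2 was also the library with the least Fst and Lin28b, and their relation to these values was not tested.

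**Figure D5:**
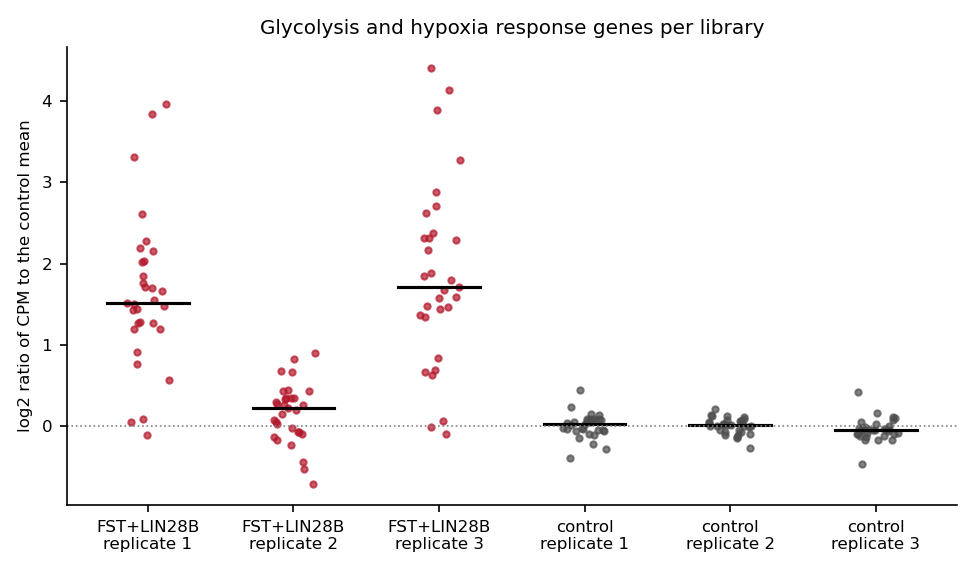
Log2 ratio of CPM to the control mean for 31 glycolysis and hypoxia genes in each FST+LIN28B and control library. Points are genes and bars are medians. FST+LIN28B replicates 1 and 3 have medians of 1.52 and 1.71, and replicate 2 has a median of 0.22.

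Markers of other cells that a cochlear preparation can hold had summed levels that overlapped between the groups for neurons, Schwann cells, melanocytes and muscle, and were separated for endothelial, immune and erythroid cells. Each sum covered only the markers that passed the filter on low counts, such as 5 of 11 for immune cells and 1 of 6 for erythroid cells. In bulk RNA, fewer cells of a type and less RNA per cell cannot be told apart. Most of the endothelial sum was Tek, the angiopoietin receptor, with 95.6, 73.5 and 70.4 CPM in FST+LIN28B organoids, against 15.3, 31.8 and 21.3 CPM in control organoids (log2 fold change 1.81 ± 0.41, adjusted p = 0.0351). Of the 6 tested endothelial markers, 0 were called by edgeR, 1 at an unadjusted p under 0.05, 1 by DESeq2 and 0 by limma. They had a median log2 fold change of 0.01, with 3 positive and 3 negative values, 1 separated above and 2 separated below the controls. Emcn was at 0.76, Pecam1 at 0.01, Tie1 at -0.002, Vwf at -0.43 and Kdr at -0.60 on that scale, and the endothelial-defining Cdh5 and Cldn5 were below the filter on low counts. Schwann cell markers summed to 107 to 134 CPM in FST+LIN28B organoids and 112 to 120 CPM in control organoids. Immune markers summed to 3.68 to 4.06 CPM in FST+LIN28B organoids and 4.63 to 4.84 CPM in control organoids, with C1qb at 0 in all 6 libraries. Melanocyte and stria markers summed to 12.9 to 17 CPM in FST+LIN28B organoids and 12.7 to 13.5 CPM in control organoids, with Tyrp1 at 0 in all 6. Erythroid markers summed to 1.21 to 1.74 CPM in FST+LIN28B organoids and 2.02 to 3.25 CPM in control organoids, and muscle markers summed to 1.36 to 1.86 CPM in FST+LIN28B organoids and 1.26 to 1.61 CPM in control organoids. The part of these cells in the differences above was not tested.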

How the data were processed

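Bulk RNA-seq was available from 12 libraries, 3 for each of 4 conditions. Per the labels and the methods of the study, the authors used kallisto 0.46.1 with transcripts of Ensembl v96 (GRCm38), and the deposited files hold estimated counts (expected counts) and lengths of each transcript. Here 116816 of 118489 transcripts were matched to 36047 genes through GENCODE M21, and 1673 were left out. Estimated counts were summed per gene and rounded to whole numbers. One edgeR 4.0.16 quasi-likelihood fit (R 4.3.3, limma 3.58.1, TMM, filterByExpr) of all 12 libraries gave each contrast, with Benjamini-Hochberg adjusted p under 0.01. The study's own fit was made with sleuth. Low counts and short or overlapping transcripts are assigned less surely by kallisto, and near-identical genes such as Gbp8, Gbp9 and Gbp4 can share reads. The index held no long non-coding RNAs.

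Groups came from the treatment label. Named genes were the 20 of highest and the 20 of lowest fold with at least 2 CPM, the 10 higher and 10 lower of smallest p, up to 6 called members of each of 45 lists, both transgenes and genes the study names. The members and lists were chosen with earlier results of these data known. In total 24 alternatives were tried, including DESeq2 1.42.0 and limma on log2(TPM + 1) and log2(TPM + 0.1), and leaving out each library. Depth of 53.66 to 65.29 M counts in the compared libraries limits genes under about 1 CPM. Counting intervals cover counting error only.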

Additional observations from a re-analysis of the deposited data

Results flagged for a closer look

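The effect of FST differed with and without LIN28B for 1 gene of 18780 tested, by edgeR's test of the interaction. AC117239.2 measured 22.3, 25.4 and 22.7 CPM in FST+LIN28B organoids, 28.3, 24.3 and 28.1 CPM in LIN28B organoids, 0, 0.216 and 0.0673 CPM in FST organoids and 40.2, 24.4 and 23.9 CPM in control organoids, with an interaction of 8.21 on the log2 scale (adjusted p = 0.00083). Its size was set by the FST libraries, whose values were near 0, and is imprecise.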

How the results depend on the processing

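No call changed direction in any of the 24 alternatives, and none of the 236 genes had the opposite sign. FST+LIN28B against control gave 236 genes, 149 higher and 87 lower. The numbers called, higher and lower were 404, 242 and 162 when only the conditions compared were fitted, 919, 594 and 325 with DESeq2, 730, 472 and 258 at an adjusted p under 0.05, and 129, 84 and 45 with Y-linked expression in the design. With library size alone they were 263, 143 and 120. With limma, 85 were higher and 97 lower on log2(TPM + 1) and 91 higher and 92 lower on log2(TPM + 0.1). Leaving out 1 library gave 58 to 621 called, 34 to 405 higher and 24 to 216 lower. FST+LIN28B against LIN28B gave 95 genes, 34 to 225 with 1 library left out, 60 with Y-linked expression in the design, 454 with DESeq2 and 305 at an adjusted p under 0.05. Of the 236 genes, DESeq2 kept 235, and limma kept 126 and 133. Replicate numbers are shared between the groups, but same-numbered FST+LIN28B and control libraries deviated together with correlations of only 0.064, 0.044 and 0.169, so the numbers were not taken as pairs. With the replicate block 134 genes were called, 84 higher and 50 lower, and 28 of 90 named calls were lost. Among described genes it ended the calls of Adamts16, Adamts2, Bach1, Car12, Chadl, Cpxm2, Cyp26a1, Erbb4, Espn, Eya2, Fam198a, Flt4, Fndc1, Fzd10, Gbp8 and Grb10. It also ended those of Itga11, Krt19, Nefl, Pbx2, Pcdh20, Plk2, Rarg, Rdh10, Sdk2, Slc24a3, Smad3, Stk32b, Tbx15, Vstm4 and Wnt5a. The share of higher genes with a let-7 match was 16.2% for an 8mer in the longest UTR, 29.7% for a 7mer and 16.9% over any UTR. The causes of these changes were not tested, except that fewer libraries were fitted when some were left out. Of 90 named called genes, 30 were called in every alternative that tested them, 59 were lost without at least 1 library, which also leaves fewer degrees of freedom, and 32 were lost with Y-linked expression in the design. Fitting only the conditions compared ended the calls of Adamts2, Cbln2, Cyp26a1, Flt4, Fndc1, Gbp8, Meis2, Nefl, Rarg, Rdh10, Tbx15 and Tnc. Library size alone ended those of Adamts16, Erbb4, Eya2, Fndc1, Itga11 and Sdk2. Applying no filter ended those of Cpxm2, Fndc1, Rdh10, Sdk2, Slc24a3 and Smad3. RLE size factors ended that of Adamts2. Limma on log2(TPM + 1) ended those of Adamts16, Adamts18, Adamts2, Bach1, Car12, Cyp26a1, Dll1, Erbb4, Espn, Flt4, Fndc1, Gbp8, Igf2bp2, Igf2bp3, Itga11, Lrrc55, Mfng, Nefl, Pbx2, Pcdh20, Plk2, Rarg, Sdk2, Smad3, Stk32b, Tbx1, Tbx15 and Tnc. Calls were also gained by described genes that the main fit did not call. Atoh1, Lhx3, Ccnd2 and Inhba were called in 8 alternatives each and Bmp6 in 9, while Bmp2, Sox2 and Mki67 were called in 0. Genes under about 1 CPM in controls have few counts there, and their folds are imprecise.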
